A study of Mus musculus with 21 samples.

Results

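The mitochondrial ribosomal proteins are nuclear-encoded proteins that form the ribosome inside mitochondria. Their genes were taken as the symbols that start with Mrpl or Mrps followed by a number, and 77 of the 14273 rows of the expression table met that rule, 48 named Mrpl and 29 named Mrps. All 77 had a value in each of the 21 libraries and all 77 were tested. The RNA came from spleen cells of C57BL/6 mice that had been sorted into 7 groups, each with 3 libraries. CD45+Ter119+CD71+ cells and CD45-Ter119+CD71+ cells were taken in 3 statuses, namely tumor-bearing, anemia and neonatal. Tumor-bearing mice also gave myeloid-derived suppressor cells (MDSC), sorted as CD11b+Gr1+. Ter119 and CD71 (the transferrin receptor) mark erythroid cells, and CD45 is a leukocyte phosphatase that erythroid cells lose as they mature. The tumor, the means by which anemia was produced, the ages, and any pooling of animals are not given in the sources used here, and nothing says whether the 3 libraries of a group came from separate animals, so that p-values measure only a spread among libraries that may be technical.

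Mitochondrial ribosomes make the few proteins encoded in mitochondrial DNA, which are core subunits of the respiratory chain and of the ATP synthase. Each ribosome has a large subunit (Mrpl proteins), which forms peptide bonds, and a small subunit (Mrps proteins), which reads the messenger RNA. Some of these proteins descend from bacterial ribosomal proteins and others were added during the evolution of mitochondria. Erythroid precursors depend on mitochondria for haem synthesis and later remove them, so that the finished red cell has none. By the position of the protein in the ribosome, 50 of the genes encode large-subunit proteins (30 of bacterial type and 20 specific to mitochondria, which include Mrps18a and Mrps30 in spite of their names), and 26 encode small-subunit proteins (16 of bacterial type and 10 specific to mitochondria). The remaining gene, Mrps36, is now regarded as encoding a subunit of the 2-oxoglutarate dehydrogenase complex of the citric acid cycle.

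The genes lie on 17 chromosomes in the mouse annotation GENCODE vM21 (GRCm38). Of the 77, 19 (24.7%) start head to head with another gene within 1000 bases, against 7.23% of 21951 protein-coding genes. A promoter window of 300 bases, 250 before and 50 after the start, was found in RefSeq (GRCm38.p6) for 68 of them. A gene was counted if any of its windows held the motif on either strand. The GABPA motif CCGGAAG was present in 25 genes (36.8%, against 9.93% of 27025 genes). The NRF1 motif (GCGCA and GCGC with any 1 base between) was present in 13 (19.1% against 5.19%), and the YY1 motif AAGATGGC in 12 (17.6% against 3.19%). The 27025 genes are all symbols with a window, a different set from the 21951 protein-coding genes. At least 1 of the 3 motifs was found in 42 genes (61.8% against 16.4%), and no 2 matches of different motifs overlapped in the first window of each gene. NRF1 and GABPA are transcription factors known for nuclear genes of mitochondrial proteins. The 100 bases before the start are shown for 4 genes that recur below, each on the plus strand, with the motif match in capitals. By the values as deposited, they are Mrpl44, higher in CD45+ cells of 2 statuses, Mrpl3, higher in all 3, and Mrpl53 and Mrpl51, lower in CD45+ cells of mice with anemia. Their windows are chr1:79775918-79776017 (Mrpl44), chr9:105053168-105053267 (Mrpl3), chr6:83109008-83109107 (Mrpl53) and chr6:125192100-125192199 (Mrpl51).
Mrpl44: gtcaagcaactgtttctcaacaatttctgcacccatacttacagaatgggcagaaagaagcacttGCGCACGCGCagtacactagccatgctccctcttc
Mrpl3: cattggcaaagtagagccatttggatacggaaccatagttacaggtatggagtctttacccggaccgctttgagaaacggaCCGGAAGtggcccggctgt
Mrpl53: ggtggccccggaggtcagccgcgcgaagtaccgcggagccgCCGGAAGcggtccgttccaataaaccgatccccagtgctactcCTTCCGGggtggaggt
Mrpl51: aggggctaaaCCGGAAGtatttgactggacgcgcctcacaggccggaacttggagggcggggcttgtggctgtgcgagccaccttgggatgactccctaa
The NRF1 match of Mrpl44 begins 35 bases before the start and the GABPA match of Mrpl3 begins 19 bases before it. Mrpl53 has a GABPA match on each strand, at 59 and 16 bases, and Mrpl51 has 1 at 90 bases. A match is a run of letters that was not tested for binding, and its part in the values below was not tested.

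A level is 2 to the power of a deposited log2 value, in units that no source used here gives, so that depth and counting error are unknown and levels are compared between libraries of 1 gene and not between genes. Levels summed to 227961 to 349261 per library. Haemoglobin transcripts took 5.73% of the total in tumor CD45+ cells against 33.6% in tumor CD45- cells, 8.72% in anemia CD45+ cells against 29.1% in anemia CD45- cells, 5.80% in neonatal CD45+ cells against 34.8% in neonatal CD45- cells, and 0.237% in MDSC. The summed level of 11 erythroid genes was 213 to 1665 in the 9 CD45+ libraries against 3825 to 7535 in the 9 CD45- libraries, and 53.3 to 118 in MDSC. The 12 neutrophil granule genes summed to 495 to 30739 in CD45+ libraries, 9.19 to 383 in CD45- libraries and 46953 to 74731 in MDSC. B cell genes (8) summed to 100.1 to 936 in CD45+ libraries, 1.504 to 12.04 in CD45- libraries and 8.004 to 12.7 in MDSC. Proliferation genes (12) summed to 319 to 934 in CD45+ libraries, 2329 to 2654 in CD45- libraries and 779 to 1013 in MDSC. No gene of these 4 lists was listed at 0 throughout a group. In the CD45 contrast of every status all 11 erythroid genes were lower and all 12 granule and 8 B cell genes higher in CD45+ cells, and 10, 12 and 7 of the 12 proliferation genes were lower in tumor-bearing mice, anemia and neonates (limma). T cell genes (7) summed to 13.9 to 239 in CD45+ libraries, 2.93 to 7.29 in CD45- libraries and 3.29 to 4.44 in MDSC, monocyte and macrophage genes (7) to 126 to 735, 8.86 to 39.2 and 270 to 584, and mast cell and eosinophil genes (8) to 8.95 to 1465, 1.96 to 13.8 and 20.1 to 225, in the same 3 kinds of library. Of the 7 tested genes of each list, 7, 7 and 5 T cell genes, 6, 6 and 6 monocyte genes and 6, 2 and 7 mast cell genes were higher in CD45+ cells of tumor-bearing mice, anemia and neonates, and none was lower. Of the mast cell and eosinophil genes, those listed at 0 throughout a group were Tpsb2 in tumor CD45+ cells, tumor CD45- cells and MDSC, Epx and Mcpt8 in anemia CD45- cells and Fcer1a in neonatal CD45- cells. These lists thus moved with every CD45 contrast below, and their part in the values of the mitochondrial ribosomal proteins was not tested. Replicate 3 had the lowest haemoglobin share of its group in all 7 groups, and replicate 3 of anemia CD45- cells stood apart, with a haemoglobin share of 11.2% against 41.0% and 35.2% in replicates 1 and 2. Replicate 3 of tumor CD45+ cells also stood apart, with a neutrophil granule sum of 11876 against 29801 and 30739 in replicates 1 and 2, a B cell sum of 553 against 137 and 174, a T cell sum of 104 against 19.8 and 27.2, and a monocyte and macrophage sum of 508 against 160 and 175.

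The summed level of the 77 genes was 843, 847 and 619 in tumor CD45+ cells, against 414, 478 and 650 in tumor CD45- cells. In anemia CD45+ cells it was 625, 694 and 628, against 397, 490 and 1043 in anemia CD45- cells, where replicate 3 was the highest of all 21 libraries. Neonatal CD45+ cells had 814, 919 and 760, against 526, 617 and 424 in neonatal CD45- cells. MDSC had 800.1, 738 and 566, within the range of the other groups. The neonatal groups did not overlap, whereas the tumor groups overlapped through replicate 3 of both (of which that of the CD45+ cells is the library that stood apart in its markers, with a part that was not tested), and the anemia groups overlapped through replicate 3 of the CD45- cells. As a share of each library's total the genes made up 0.294% ± 0.0323 in tumor CD45+ cells and 0.179% ± 0.0690 in tumor CD45- cells, 0.275% ± 0.0187 in anemia CD45+ cells and 0.241% ± 0.166 in anemia CD45- cells, 0.320% ± 0.0249 in neonatal CD45+ cells and 0.164% ± 0.0153 in neonatal CD45- cells, and 0.249% ± 0.0503 in MDSC (SD, n = 3 each). With haemoglobin left out of the total, the shares were 0.313% ± 0.0363 in tumor CD45+ cells and 0.263% ± 0.0519 in tumor CD45- cells, 0.302% ± 0.0234 in anemia CD45+ cells and 0.319% ± 0.147 in anemia CD45- cells, 0.341% ± 0.0383 in neonatal CD45+ cells and 0.253% ± 0.0421 in neonatal CD45- cells, and 0.250% ± 0.0509 in MDSC. Without replicate 3 the anemia CD45- mean was 0.235%, below that of anemia CD45+ cells. In bulk samples, fewer cells of a type and less RNA per cell cannot be told apart.

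**Figure D1:**
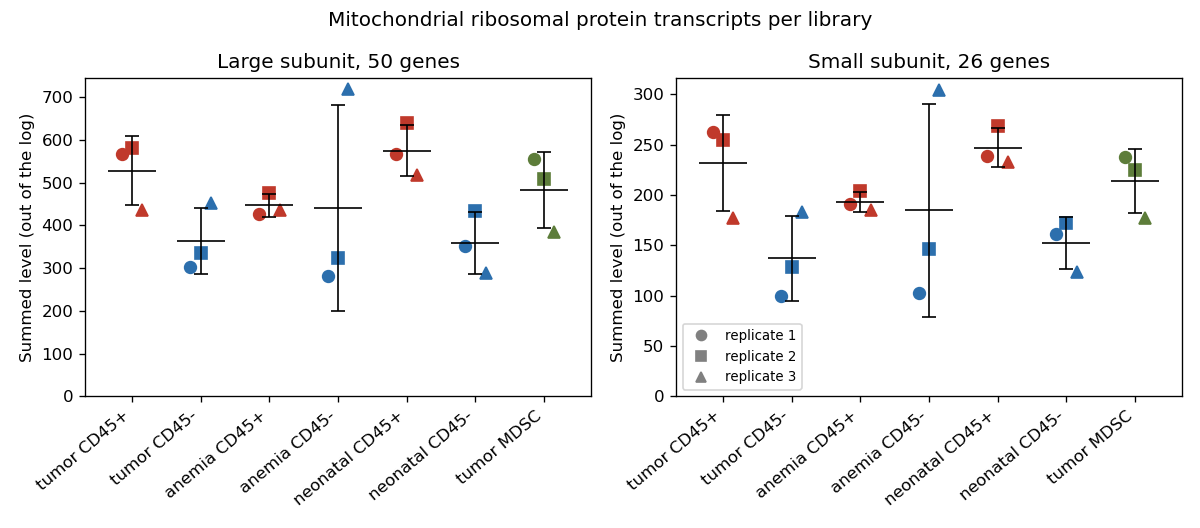
Summed level per library (linear axis, deposited values out of the log) of the 50 large-subunit genes and the 26 small-subunit genes in the 7 groups. Points are libraries, with a shape for each replicate number, and lines are the mean and SD of 3 libraries. Replicate 3 of anemia CD45- cells is the highest point in both panels, at 718 for the large subunit and 304 for the small subunit.

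The proportion of the subunits was compared within libraries. The large-subunit sum was 2.30 ± 0.153 times the small-subunit sum in tumor CD45+ cells and 2.71 ± 0.286 times in tumor CD45- cells (SD, n = 3 each). The ratio was 2.31 ± 0.0727 in anemia CD45+ cells and 2.43 ± 0.276 in anemia CD45- cells, 2.33 ± 0.0871 in neonatal CD45+ cells and 2.35 ± 0.171 in neonatal CD45- cells, and 2.25 ± 0.0863 in MDSC. The tumor pair was the widest, with 2.16, 2.28 and 2.46 in CD45+ libraries against 3.02, 2.62 and 2.47 in CD45- libraries. All 3 CD45- libraries were higher, though the nearest of them lay close to replicate 3 of the CD45+ cells, and 3 libraries against 3 cannot reach an exact p under 0.10. This ratio needs no scaling between libraries.

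The genes did not share 1 order of groups. Neonatal CD45+ cells had the highest mean for 32 of the 77 genes, anemia CD45- cells and MDSC for 13 each, anemia CD45+ cells for 9, tumor CD45+ cells for 6, and tumor CD45- and neonatal CD45- cells for 2 each. The lowest mean was in tumor CD45- cells for 34 genes, in neonatal CD45- cells for 17, in anemia CD45+ cells for 10, in anemia CD45- cells and MDSC for 7 each, in neonatal CD45+ cells for 2 and in tumor CD45+ cells for none. The anemia CD45- counts rested on replicate 3. Without it that group had the highest mean for 4 genes and the lowest for 34, and tumor CD45- cells had the lowest for 18. All these counts use levels as deposited and were not made over all genes, so they cannot be set against a background. On that scale 50.2%, 47.4% and 49.6% of all tested genes were higher in CD45+ cells of tumor-bearing mice, anemia and neonates. The ratio of the highest to the lowest group mean was largest for Mrps6 (14.98), followed by Mrps35 (7.44), Mrps2 (5.73), Mrpl44 (4.96) and Mrps27 (4.87). For Mrps6, Mrps35 and Mrps2 the lowest mean, in tumor CD45- cells, was under 1 (0.413, 0.936 and 0.689). Ratios of levels so low, taken without the added 1, are uncertain.

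In tumor-bearing mice, CD45+ cells had higher levels than CD45- cells for 26 of the 77 genes and a lower level for 1, by limma with Benjamini-Hochberg adjustment over 11195 genes at 0.05. Among all tested genes 50.2% were higher and 10.9% lower (61.1% in either direction), against 33.8% of the mitochondrial ribosomal protein genes that were higher. The count of 26 was 13 without replicate 1 of tumor CD45- cells (42.4% of all genes), 17 without replicate 2 of those cells (44.2%), and 45 without replicate 3 of every group (58.7%), a choice made after the data were seen. The members' median log2 fold change on the log2(value + 1) scale was 0.53, against 0.75 for all genes. This median lay below that of all genes as deposited (by 0.22), after median-ratio scaling (by 0.29), after quantile normalization (by 0.27) and with haemoglobin genes left out and libraries rescaled (by 0.26), but the sign of the change itself depended on the scaling, since the members' median was -0.24 after median-ratio scaling and -0.38 after quantile normalization. Those scalings moved the median of all genes to 0.05 and -0.11, and leaving haemoglobin out moved it to 0.54. The counts of higher and lower genes were then 4 and 11, 1 and 16, and 12 and 3. Of all genes, 32% were higher and 26.3% lower after median-ratio scaling, 24.4% and 28.6% after quantile normalization, and 42.1% and 14.5% without haemoglobin. Without replicate 3 of tumor CD45+ cells the order of the medians turned, with a members' median of 0.72 against 0.69 for all genes.

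**Figure D2:**
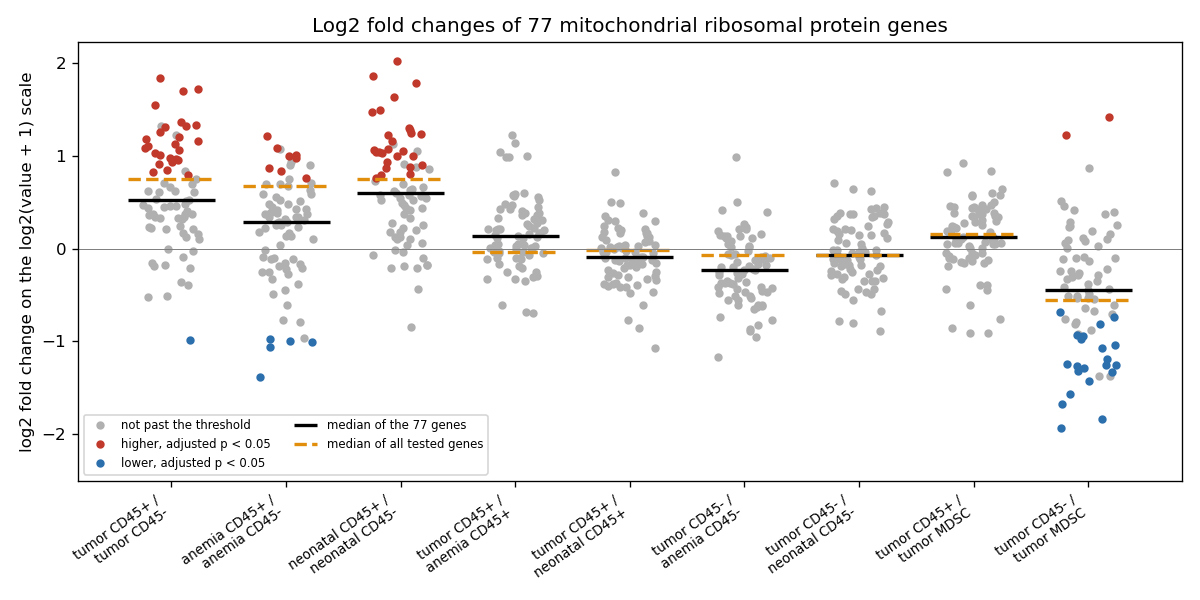
Log2 fold change (log2(value + 1) scale, deposited values with no further scaling) of the 77 genes in 9 comparisons, the first-named group over the second. Each point is a gene, coloured by whether it passed limma's adjusted p of 0.05, and bars are the medians of the 77 genes and of all tested genes. In the 3 CD45 contrasts the members' median (0.53, 0.29 and 0.60) is positive and below that of all genes (0.75, 0.68 and 0.75), and it turns negative after median-ratio scaling or quantile normalization.

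Of the small-subunit genes 12 of 26 rose and none fell in tumor CD45+ cells, with a median log2 fold change of 0.70, and of the large-subunit genes 14 of 50 rose and 1 fell, with a median of 0.47, but after quantile normalization the medians were -0.32 and -0.39, with 1 small-subunit gene higher and 4 lower. The 10 small-subunit genes specific to mitochondria had a median of 1.08, which was 0.33 above that of all genes, and 6 of them rose (Mrps18b, Mrps23, Mrps26, Mrps27, Mrps33 and Mrps35). After median-ratio scaling the median was 0.32 and 1 rose, and after quantile normalization it was -0.09, with none higher and 2 lower. Of the 16 small-subunit genes of bacterial type, 6 rose. Of the large-subunit genes, 7 of the 30 of bacterial type and 7 of the 20 specific to mitochondria rose. Beside these counts, 50.2% of all tested genes rose and 10.9% fell as deposited, with a median of 0.75. After median-ratio scaling 32% of all genes rose, and after quantile normalization 24.4% rose and 28.6% fell. Differences of the subunit counts from those shares were not tested. Mrps24, Mrpl11 and Mrpl10, which lay at the middle of the distribution, had log2 fold changes of 0.52, 0.53 and 0.54 and did not pass.

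Mrps35, a mitochondria-specific protein of the small subunit, had levels of 5.46, 4.73 and 5.65 in tumor CD45+ cells, against 0.440, 0.954 and 1.41 in tumor CD45- cells. All CD45+ libraries lay above all CD45- libraries and varied less. The log2 fold change was 1.73 ± 0.33 (SE, adjusted p = 0.000239), positive under all 4 scalings and not past the threshold after quantile normalization (0.44). Mrps15, the counterpart of a bacterial small-subunit protein, had 14.6, 13.6 and 13.9 in tumor CD45+ cells, against 2.00, 3.27 and 6.76 in tumor CD45- cells. Its 3 CD45+ libraries were nearly equal, and the CD45- libraries were all lower and spread out. It rose by 1.70 ± 0.42 on the log2 scale (adjusted p = 0.00204) and was the 1 member that rose in this contrast under all 4 scalings.

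Among large-subunit genes, Mrpl44, whose protein carries a fold related to ribonuclease III, had 8.58, 8.04 and 7.02 in tumor CD45+ cells, against 1.22, 1.64 and 3.77 in tumor CD45- cells. The groups did not overlap, and the log2 fold change was 1.54 ± 0.33 (adjusted p = 0.000642), which was 0.35 and not past the threshold after quantile normalization. Mrpl33, a small protein of bacterial type, had the largest fold change of the contrast, 1.84 ± 0.49 (adjusted p = 0.00372). Its levels of 24.2, 72.3 and 15.7 in tumor CD45+ cells, against 6.81, 10.8 and 6.32 in tumor CD45- cells, show that replicate 2 of the CD45+ cells carried much of it. Without that library the log2 fold change was 1.23, and it did not pass after median-ratio scaling or quantile normalization. Another transcript shares 22.4% of the exon bases of Mrpl33, which makes its value uncertain. Mrpl42 rose by 1.37 ± 0.50 (adjusted p = 0.0249), with 25.6, 21.3 and 19.3 in tumor CD45+ cells, against 3.69, 6.43 and 19.0 in tumor CD45- cells. Its groups were separated only narrowly, at replicate 3 of both, the call was lost without replicate 1 or 2 of the CD45- cells or replicate 1 of the CD45+ cells and under the 3 other scalings, and the gene has a near-identical pseudogene copy.

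Mrpl53 was the member that fell. Its levels were 3.54, 3.72 and 4.76 in tumor CD45+ cells, against 7.55, 11.1 and 8.32 in tumor CD45- cells. No CD45+ library reached the lowest CD45- library. The log2 fold change was -0.99 ± 0.40 (adjusted p = 0.0402), and it was below 0 and past the threshold under all 4 scalings, at -1.83 after median-ratio scaling and -1.90 after quantile normalization. The adjusted p was 0.0518 to 0.127 when any 1 of the 6 tumor libraries was left out. All exon bases of Mrpl53 lie in another annotated gene on the same strand, Gm42688, so reads of the 2 cannot be told apart.

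**Figure D3:**
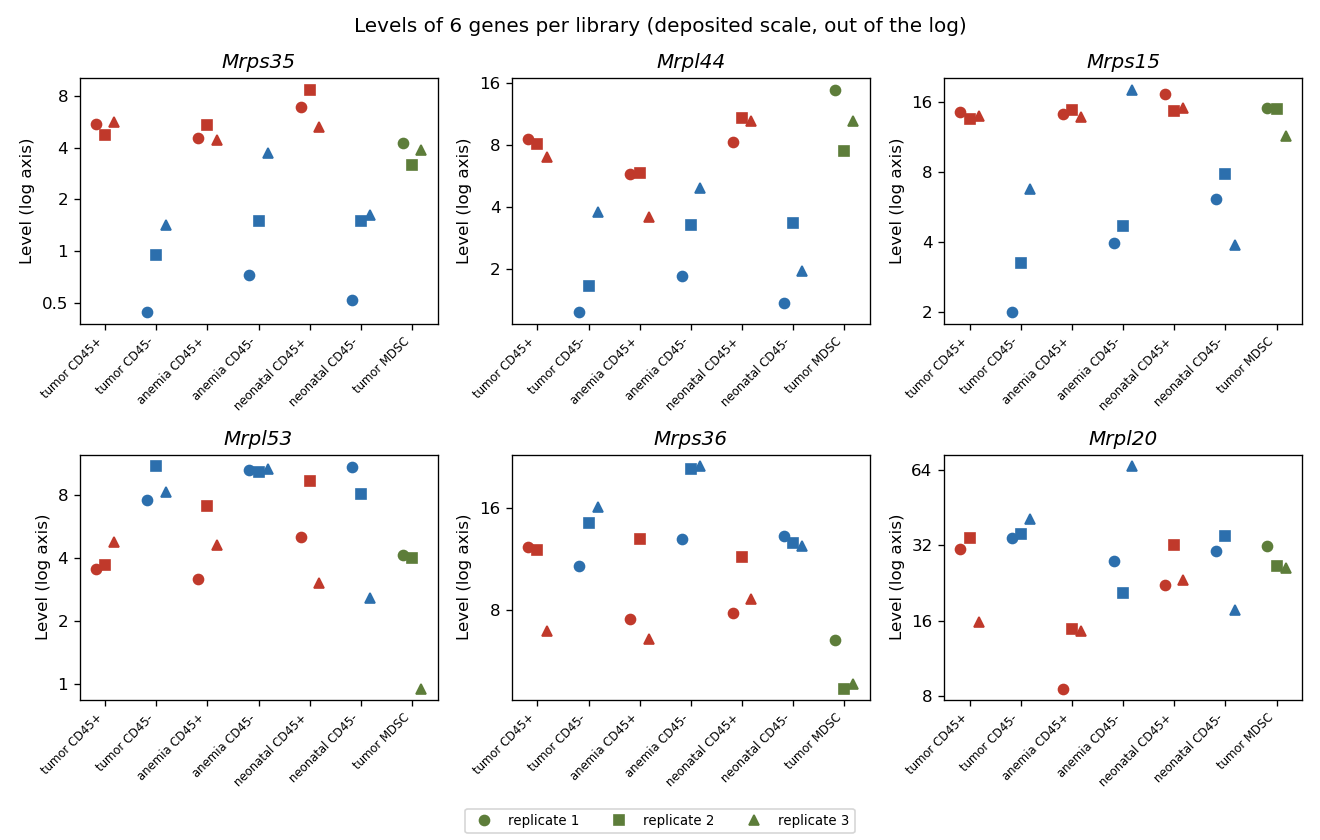
Levels of 6 genes, as deposited with no further scaling, in the 21 libraries (out of the log, logarithmic axis that differs between panels). Points are libraries, red for CD45+, blue for CD45- and green for MDSC, with a shape for each replicate number. Mrps35, Mrpl44 and Mrps15 lie higher in tumor and neonatal CD45+ cells than in CD45- cells, Mrpl53 lies lower in tumor and anemia CD45+ cells, Mrps36 is lowest in MDSC, and Mrpl20 is lowest in anemia CD45+ cells.

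In neonatal mice, CD45+ cells had higher levels than CD45- cells for 27 of the 77 genes and lower levels for none (limma, adjusted over 11195 genes). Of all tested genes 49.6% were higher and 10.3% lower, 59.9% in either direction. Without replicate 3 of neonatal CD45- cells 17 members were higher, and the share of all genes in that refit is not given here. The members' median log2 fold change was 0.60 against 0.75 for all genes, which was below all genes by 0.15 as deposited and by 0.17 to 0.25 under the other 3 scalings, while the members' median itself was -0.20 after median-ratio scaling and -0.26 after quantile normalization. The counts of higher and lower genes were 4 and 8 after median-ratio scaling, 4 and 15 after quantile normalization and 19 and 1 with haemoglobin left out. The shares of all genes were 29.9% and 24.9%, 24.7% and 26.1%, and 43.2% and 12.9% in the same order. The large subunit contributed 17 of 50 genes and the small subunit 10 of 26, among them Mrps18b, Mrps23, Mrps26, Mrps27, Mrps33 and Mrps35 of the 10 small-subunit genes specific to mitochondria, whose median was 0.90 as deposited and 0.01 after quantile normalization.

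Mrps6, the counterpart of a bacterial small-subunit protein, had 5.08, 3.38 and 10.1 in neonatal CD45+ cells, against 0.271, 0.473 and 1.34 in neonatal CD45- cells. Every CD45+ library exceeded every CD45- library, although both groups were variable. The log2 fold change was 2.03 ± 0.47 (adjusted p = 0.00135), past the threshold under all 4 scalings, but 36.1% of the exon bases of Mrps6 are shared with other genes, so the value is uncertain. Mrps35 had 6.87, 8.72 and 5.29 in neonatal CD45+ cells, against 0.518, 1.504 and 1.63 in neonatal CD45- cells, with no overlap (1.86 ± 0.33, adjusted p = 0.000124). Mrpl44 had 8.22, 10.8 and 10.4 in neonatal CD45+ cells, against 1.35, 3.34 and 1.95 in neonatal CD45- cells, and the groups were again well separated (1.79 ± 0.33, adjusted p = 0.000178). Both of these genes rose under all 4 scalings.

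Mrps27, a mitochondria-specific small-subunit protein with RNA-binding repeats, had 4.97, 5.35 and 6.49 in neonatal CD45+ cells, against 0.700, 1.10 and 1.65 in neonatal CD45- cells. The groups did not overlap (1.64 ± 0.36, adjusted p = 0.000852), though the call was lost after quantile normalization. Mrpl12, the stalk protein of the large subunit, which is also known to bind the mitochondrial RNA polymerase, had 24.3, 25.7 and 18.4 in neonatal CD45+ cells, against 5.93, 10.99 and 6.02 in neonatal CD45- cells. Its libraries separated by group, but the log2 fold change of 1.496 ± 0.60 (adjusted p = 0.0388) was lost under the 3 other scalings, with same-numbered libraries of a status as blocks (adjusted p = 0.0572) and without any 1 of 5 of the 6 neonatal libraries. Antisense or overlapping transcripts share 22.6% of the exon bases of Mrps27 and 15.2% of those of Mrpl12, and the strand setting of the counting is not given in the sources used here.

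In mice with anemia, CD45+ cells had higher levels than CD45- cells for 8 of the 77 genes and lower levels for 5 (limma, adjusted over 11195 genes). Of all tested genes 47.4% were higher and 11.3% lower, 58.7% in either direction. The members' median log2 fold change was 0.29 against 0.68 for all genes. It was below that of all genes by 0.39 as deposited, 0.50 after median-ratio scaling, 0.51 after quantile normalization and 0.42 with haemoglobin left out, and it was itself -0.47 and -0.61 after median-ratio scaling and quantile normalization. The counts of higher and lower genes were then 0 and 20, and 0 and 29, and with haemoglobin left out they were 7 and 7. Of all genes, 29.5% were higher and 25.9% lower after median-ratio scaling, 23.9% and 27.6% after quantile normalization, and 44.9% and 12.6% without haemoglobin.

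The count of 8 higher genes as deposited turned on the CD45- libraries of this status. Without replicate 3 of anemia CD45- cells, 29 genes were higher and 4 lower, with a members' median of 0.63 against 0.86 for all genes. Without replicate 1 of that group 2 genes were higher, and without replicate 2 there were 5. The shares of all genes called in these refits are not given here, so the swing cannot be read as particular to the members. Replicate 3 also carried 25306 of summed cytosolic ribosomal protein level, against 7936 and 9818 in the other anemia CD45- libraries.

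The genes higher in anemia CD45+ cells were Mrpl1, Mrpl3, Mrpl24, Mrpl27, Mrpl54, Mrps9, Mrps23 and Mrps35. Mrps23, a mitochondria-specific small-subunit protein, had 14.4, 17.1 and 15.6 in anemia CD45+ cells, against 5.55, 3.96 and 10.3 in anemia CD45- cells. The groups did not overlap, and replicate 3 came nearest among the CD45- libraries (log2 fold change 1.22 ± 0.33, adjusted p = 0.0045). Mrpl3, the counterpart of a bacterial protein near the peptidyl transferase centre, had 8.85, 8.84 and 12.7 in anemia CD45+ cells, against 2.89, 3.52 and 8.42 in anemia CD45- cells. Replicate 3 of the CD45- cells lay just under the lowest CD45+ library (1.00 ± 0.29, adjusted p = 0.00666). Mrps35 (1.08 ± 0.33), Mrpl24 (0.98 ± 0.32) and Mrpl1 (0.87 ± 0.29) also passed without overlap. Leaving out replicate 1 of anemia CD45- cells ended all 3 of these calls (adjusted p = 0.0705, 0.101 and 0.0754 by limma), as did leaving out replicate 2 for Mrpl24 and Mrpl1 (0.0537 and 0.0684), and replicate 3 of the CD45+ cells for Mrpl1 (0.0563). None of the 5 calls from Mrps23 to Mrpl1 held after median-ratio scaling or quantile normalization, and under quantile normalization Mrps35 and Mrpl1 had the opposite sign (-0.06 and -0.19). Mrpl24 shares 38.2% of its exon bases with the opposite-strand gene Rrnad1.

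The 5 genes lower in anemia CD45+ cells were lower under all 4 scalings. Mrpl20, a large-subunit protein whose bacterial counterpart takes part in assembly of that subunit, had 8.55, 14.8 and 14.6 in anemia CD45+ cells, against 27.6, 20.6 and 66.7 in anemia CD45- cells. All CD45- libraries were higher, and replicate 3 was more than any other library (log2 fold change -1.39 ± 0.39, adjusted p = 0.00565, and -0.90 without that library). Mrpl18, of bacterial type, had 11.6, 13.7 and 11.8 in anemia CD45+ cells, against 21.01, 23.8 and 38.02 in anemia CD45- cells. The groups were clearly apart (-1.06 ± 0.31, adjusted p = 0.00697). Mrpl51, a mitochondria-specific large-subunit protein, had 5.81, 6.31 and 5.07 in anemia CD45+ cells, against 9.94, 9.48 and 19.9 in anemia CD45- cells. Here too no libraries overlapped (-0.997 ± 0.29, adjusted p = 0.00654), though a pseudogene copy can share its reads.

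Mrpl53 had 3.16, 7.11 and 4.64 in anemia CD45+ cells, against 10.5, 10.4 and 10.7 in anemia CD45- cells. The CD45- libraries were nearly equal and all above the CD45+ libraries (-1.004 ± 0.40, adjusted p = 0.0386), and the adjusted p was 0.067 to 0.152 without any 1 of 5 of the 6 anemia libraries, all but replicate 2 of the CD45+ cells. Mrps36, the gene that is not counted as a ribosomal subunit, had 7.51, 13.01 and 6.55 in anemia CD45+ cells, against 12.95, 20.99 and 21.4 in anemia CD45- cells. Replicate 2 of the CD45+ cells reached just past replicate 1 of the CD45- cells (-0.98 ± 0.29, adjusted p = 0.00775), and 4 near-identical pseudogene copies make its level uncertain.

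As deposited, 5 genes were higher in CD45+ cells of all 3 statuses, namely Mrpl3, Mrpl54, Mrps9, Mrps23 and Mrps35. They are 6.49% of the members, against 36.3% of all tested genes (4059). None of the 5 was called in all 3 statuses after median-ratio scaling or quantile normalization, since no member was then higher in anemia. At least 1 CD45 contrast called 35 genes higher and 5 lower, and 37 genes were called in none. The same was not counted over all genes, so these counts cannot be set against a background. No member was lower in all 3, against 6.9% of all tested genes (772). Across the 77 genes the log2 fold changes of tumor-bearing and neonatal mice, which share no library, had a Pearson correlation of 0.79 (Spearman 0.81) with the same sign in 72 genes. The correlation was 0.60 (0.57) between tumor-bearing mice and mice with anemia, with the same sign in 57, and 0.53 (0.53) between anemia and neonates, with the same sign in 56. These describe genes within the same libraries, which are not independent replicates and which share the haemoglobin gap between CD45+ and CD45- cells. The correlations and sign counts use values as deposited and were not computed over all genes, so they cannot be read as particular to the members.

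**Figure D4:**
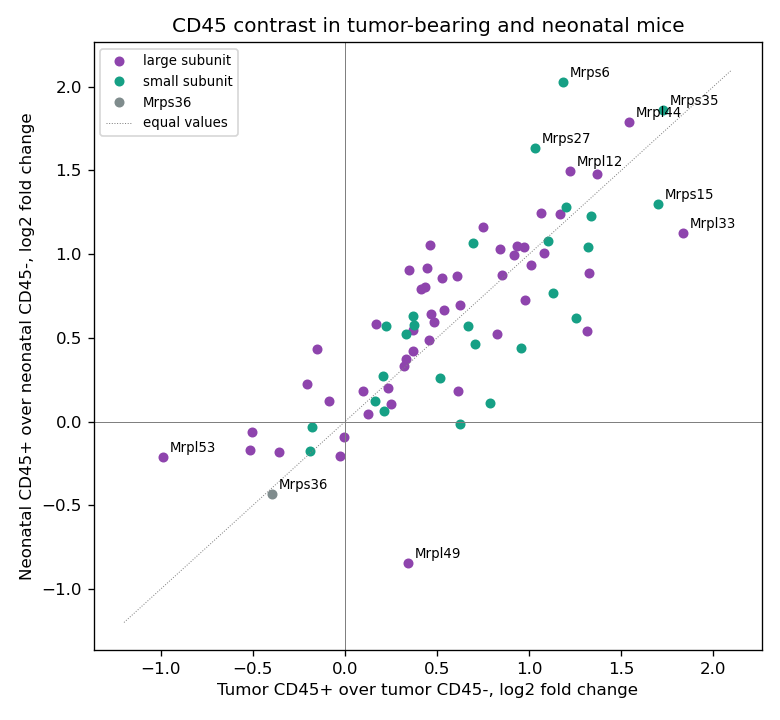
Log2 fold change of CD45+ over CD45- cells in tumor-bearing mice (horizontal axis) and in neonatal mice (vertical axis) for the 77 genes, on the log2(value + 1) scale with no further scaling. Points are genes coloured by subunit, and the dotted line marks equal values. Most genes lie up and to the right of 0, Mrpl53 lies at -0.99 in tumor-bearing mice, and Mrpl49 lies at 0.34 in tumor-bearing and -0.84 in neonatal mice without passing in either.

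Whether the CD45 contrast differed between statuses was tested with interaction terms. No member passed for tumor-bearing mice against mice with anemia (limma, lowest adjusted p = 0.142, with 4 of 77 at an unadjusted p under 0.05), where 1.80% of all genes were higher and 0.393% lower (2.20% in either direction). The members' median difference was 0.47, against 0.03 for all genes, and 67 of 77 were positive. Those values rested on 1 library, since without replicate 3 of anemia CD45- cells the median was 0.03 against -0.08 for all genes, and 45 of 77 were positive. The 4 genes were Mrpl18, Mrpl33, Mrpl41 and Mrpl44, named here after their values were seen. For tumor-bearing against neonatal mice no member passed either (lowest adjusted p = 0.676, none at an unadjusted p under 0.05), against 0.509% of all genes higher and 0.572% lower (1.08% in either direction), and the members' median difference was -0.07 against 0.04 for all genes.

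Between CD45+ cells of different statuses no mitochondrial ribosomal protein gene passed. For tumor against anemia CD45+ cells, where 5.82% of all genes were higher and 4.91% lower (10.7% in either direction), the lowest adjusted p was 0.105 (limma), and 4 genes had an unadjusted p under 0.05. The 4, named after their values were seen, all had higher means in tumor CD45+ cells. Mrpl20 averaged 26.9 ± 9.76 in tumor CD45+ cells and 12.6 ± 3.53 in anemia CD45+ cells (SD, n = 3 each). Mrpl40 averaged 14.1 ± 1.79 in tumor CD45+ cells and 6.40 ± 1.67 in anemia CD45+ cells. Their log2 fold changes were 1.00 and 1.04, with adjusted p = 0.122 and 0.156 by limma. Mrps18c averaged 26.5 ± 10.6 in tumor CD45+ cells and 12.05 ± 1.27 in anemia CD45+ cells, and Mrpl57 averaged 7.21 ± 3.01 in tumor CD45+ cells and 2.96 ± 2.11 in anemia CD45+ cells, neither past the threshold. The members' median was 0.13 against -0.03 for all genes, and it stood 0.15 to 0.18 above that of all genes under all 4 scalings, though with haemoglobin left out the median itself was -0.03. In 9 genes all tumor libraries were above all anemia libraries and in 2 all were below. The share of all genes separated in this way was not counted, so neither count can be set against a background. All 12 neutrophil granule genes were higher and 7 of 8 B cell genes lower in tumor than in anemia CD45+ cells, and their part was not tested. Without replicate 3 of tumor CD45+ cells 3 genes passed as higher, and without replicate 3 of anemia CD45- cells 2 did. The shares of all genes in those refits are not given here.

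For tumor against neonatal CD45+ cells, 2.20% of all genes were higher and 4.41% lower (6.61% in either direction), and no member was called (lowest adjusted p = 0.233, 1 gene at an unadjusted p under 0.05). That gene was Mrps6, with 2.39, 2.91 and 1.38 in tumor CD45+ cells, against 5.08, 3.38 and 10.1 in neonatal CD45+ cells. All neonatal libraries were higher, with a log2 fold change of -1.08 ± 0.47 (adjusted p = 0.233). The members' median was -0.09 against -0.02 for all genes. Mast cell and eosinophil genes summed to 30.9 to 121 in tumor CD45+ cells and 773 to 1465 in neonatal CD45+ cells (5 of 7 tested lower), and neutrophil granule genes to 11876 to 30739 in tumor CD45+ cells and 9855 to 12436 in neonatal CD45+ cells, and their part was not tested.

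CD45- cells of tumor-bearing mice did not differ past the threshold from those of mice with anemia (lowest adjusted p = 0.496, 4 genes at an unadjusted p under 0.05, limma) or of neonates (0.492, none). Of all genes, 0.116% were higher and 0.0357% lower in tumor than in anemia CD45- cells, and 0.402% and 2.13% in tumor than in neonatal CD45- cells (0.152% and 2.54% in either direction). The members' median was -0.23 against anemia, and -0.07 against neonates, where it was 0.05 after quantile normalization. Without replicate 3 of anemia CD45- cells the sign against anemia turned, with a median of 0.17 against 0.02 for all genes.

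MDSC, the myeloid cells from tumor-bearing mice, were compared in a fit of 9 libraries and 10255 genes. Tumor CD45+ cells had no member past the threshold (lowest adjusted p = 0.094, 5 genes at an unadjusted p under 0.05, limma), where 5.42% of all genes were higher and 0.995% lower (6.42% in either direction). Mrpl38, nearest to the threshold, had 7.999, 8.19 and 7.25 in tumor CD45+ cells, against 4.84, 4.52 and 2.12 in MDSC. The groups did not overlap, with a log2 fold change of 0.92 ± 0.29. The other 4 were Mrpl3, Mrpl40 and Mrps36, with higher means in tumor CD45+ cells, and Mrpl49, with a lower mean. They were named after their values were seen. The members' median was 0.12 against 0.16 for all genes as deposited and -0.11 against -0.11 after median-ratio scaling. In 10 of the 77 genes all tumor CD45+ libraries lay above all MDSC libraries, but this separation was not counted over all genes. Neutrophil granule transcripts summed to 11876 to 30739 in tumor CD45+ cells and to 46953 to 74731 in MDSC.

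Against MDSC, tumor CD45- cells had 21 genes lower and 2 higher, where 42.1% of all genes were lower and 14.3% higher (56.4% in either direction). The 21 were 12 without replicate 1 or 2 of MDSC, 13 without replicate 1 of tumor CD45- cells and 45 without replicate 3 of every group. For these refits the shares of all genes lower are not given here. The members' median was -0.44 against -0.56 for all genes as deposited, and it stood above that of all genes under all 4 scalings (by 0.11 to 0.19), but it turned to 0.13 after median-ratio scaling, 0.29 after quantile normalization and 0.01 with haemoglobin left out. The higher and lower counts were then 13 and 8, 15 and 3, and 9 and 8. Of all genes, 27% were higher and 31.9% lower after median-ratio scaling, 29.4% and 25.2% after quantile normalization, and 22.4% and 31% without haemoglobin. As deposited, 13 of 50 large-subunit genes were lower and 1 higher, and 8 of 26 small-subunit genes were lower.

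Mrpl44 had 1.22, 1.64 and 3.77 in tumor CD45- cells, against 14.9, 7.51 and 10.5 in MDSC. The groups were far apart (log2 fold change -1.93 ± 0.33, adjusted p = 0.000464). Mrps15 had 2.00, 3.27 and 6.76 in tumor CD45- cells, against 15.2, 14.98 and 11.5 in MDSC (-1.67 ± 0.32, adjusted p = 0.001). Mrps23 had 5.42, 7.70 and 4.37 in tumor CD45- cells, against 19.1, 17.4 and 14.8 in MDSC (-1.43 ± 0.26, adjusted p = 0.000683). These 3 genes were lower under all 4 scalings with no overlap of libraries. Mrpl33 (-1.83 ± 0.45) was also lower without overlap, but did not pass after median-ratio scaling or quantile normalization, and Mrps2 (-1.56 ± 0.39), the counterpart of a bacterial small-subunit protein, did not pass after quantile normalization.

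The 2 genes that were higher did so under all 4 scalings. Mrpl53 had 7.55, 11.1 and 8.32 in tumor CD45- cells, against 4.14, 4.02 and 0.947 in MDSC. All CD45- libraries were higher (1.42 ± 0.36, adjusted p = 0.00631). Mrps36 had 10.8, 14.5 and 16.2 in tumor CD45- cells, against 6.5, 4.68 and 4.82 in MDSC. It too showed no overlap (1.22 ± 0.27, adjusted p = 0.00278), and it had its lowest mean of all 7 groups in MDSC.

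**Figure D5:**
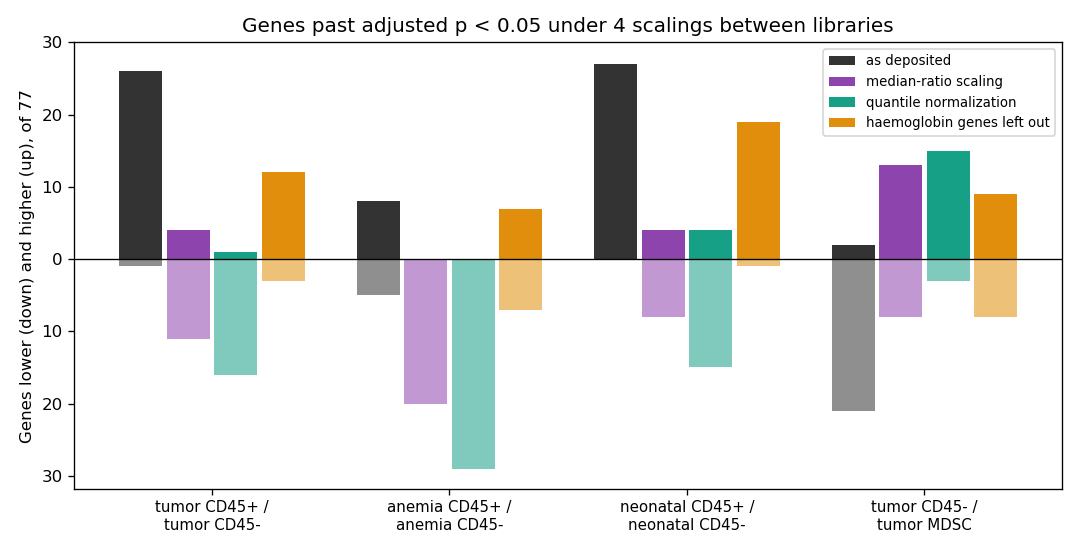
Numbers of the 77 genes that were higher (upward bars) or lower (downward, paler bars) at limma's adjusted p of 0.05 in 4 comparisons, for the values as deposited, after median-ratio scaling, after quantile normalization, and with haemoglobin genes left out and libraries rescaled. In tumor-bearing mice the CD45 contrast runs from 26 higher and 1 lower as deposited to 1 higher and 16 lower after quantile normalization, and in the comparison with MDSC from 2 higher and 21 lower to 15 higher and 3 lower. The shares of all genes called also moved with the scaling and are given in the text.

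Other genes of mitochondrial translation were set beside the members by counts alone. In tumor CD45+ against CD45- cells, 33 of 57 rose and 1 fell, with a median log2 fold change of 0.90, where 50.2% of all genes rose with a median of 0.75. In neonates 27 of 57 (47.4%) rose and none fell (median 0.69), where 49.6% of all genes rose (median 0.75), and in anemia 19 (33.3%) rose and 3 fell (median 0.50), where 47.4% of all genes rose (median 0.68). As with the members these directions depended on the scaling, since after quantile normalization 3 rose and 14 fell in tumor-bearing mice (median -0.23 of 58 tested), 4 rose and 14 fell in neonates (-0.12), and 4 rose and 23 fell in anemia (-0.56). Of all genes, 24.4% then rose and 28.6% fell in tumor-bearing mice, 24.7% and 26.1% in neonates, and 23.9% and 27.6% in anemia. By role in tumor-bearing mice, 8 of 14 translation factors, 13 of 21 assembly factors, 10 of 16 mitochondrial tRNA synthetases, 2 of 6 ribosomal subunits with other names and 3 of 14 genes of mitochondrial DNA and RNA upkeep were higher as deposited, against 1, 1, 0, 1 and 1 after quantile normalization.

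Among the factors, Mtfmt, which formylates the initiator methionyl-tRNA, had 4.61, 4.73 and 4.997 in tumor CD45+ cells, against 0.569, 0.749 and 1.28 in tumor CD45- cells. The difference was wide beside the spread (1.65 ± 0.25, adjusted p = 2.3e-05), and Mtfmt rose in anemia (1.67) and neonates (1.63) too, but after quantile normalization it passed only in neonates (0.63). Oxa1l, which inserts new proteins into the inner membrane, also rose in all 3 statuses (1.56, 1.49 and 1.56 in tumor-bearing mice, anemia and neonates) and did so under all 4 scalings. Rbfa, a maturation factor of the small subunit, had 21.5, 19.4 and 13.8 in tumor CD45+ cells, against 4.48, 3.25 and 4.02 in tumor CD45- cells. The groups were several-fold apart (1.95 ± 0.29, adjusted p = 2.03e-05). It rose by 2.45 in neonates, and in both of these contrasts under all 4 scalings. In anemia it rose by 0.91 as deposited and was at -0.01 after quantile normalization. Tufm, the elongation factor Tu, rose as deposited in tumor-bearing mice (1.30 ± 0.39, adjusted p = 0.00826) and in neonates (1.25 ± 0.39, adjusted p = 0.0105), and had 0.75 ± 0.39 in anemia (adjusted p = 0.105), and it passed in none after median-ratio scaling.

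As deposited, few of these genes fell. Mrm1, an rRNA methyltransferase, had 2.41, 12.2 and 5.39 in tumor CD45+ cells, against 13.3, 40.6 and 14.99 in tumor CD45- cells. The groups stood next to each other without overlap (-1.68 ± 0.56, adjusted p = 0.016). It also fell in anemia (-1.40 ± 0.56, adjusted p = 0.0416), where libraries overlapped, and it was lower under all 4 scalings in both. Subunits that carry other names split, with Ict1 at 1.90 ± 0.37 (adjusted p = 0.000279) and Ptcd3 at 1.00 ± 0.40 (adjusted p = 0.0404), both higher in tumor CD45+ cells, and Dap3 at 0.25 ± 0.36, which did not pass (adjusted p = 0.565). Of genes of mitochondrial DNA and RNA, Ssbp1 (2.11 ± 0.53, adjusted p = 0.00235), the mitochondrial single-stranded DNA-binding protein, and Polrmt (1.27 ± 0.28, adjusted p = 0.00101), the mitochondrial RNA polymerase, were higher in tumor CD45+ cells, Polrmt with -0.02 after quantile normalization, while Tfam (0.75 ± 0.41, adjusted p = 0.123) and Lrpprc (-0.27 ± 0.25, adjusted p = 0.357) did not pass as deposited. Lrpprc, which stabilises mitochondrial mRNA, was lower after each of the 3 other scalings (-1.19, -0.83 and -0.58 after median-ratio scaling, quantile normalization and without haemoglobin).

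The families most like the members were counted in the same fits. Of 75 cytosolic ribosomal protein genes, 27 rose and 1 fell in tumor-bearing mice (median 0.74), 44 rose and 1 fell in anemia (0.93) and 7 rose and 1 fell in neonates (0.54). Of 88 tested nuclear genes of the respiratory chain, 16 rose and 2 fell in tumor-bearing mice (0.42), 7 rose and 6 fell in anemia (-0.17) and 17 rose and 2 fell in neonates (0.41). The members' medians of 0.53, 0.29 and 0.60 lay between those of these families in tumor-bearing mice and in anemia and above both in neonates, but below both in all 3 statuses after quantile normalization, where the cytosolic family stood at 0.76, 1.09 and 0.52. These differences between families were not tested, and the respiratory chain medians after quantile normalization are not given here. As deposited, 50.2% of all tested genes rose and 10.9% fell in tumor-bearing mice (median 0.75). In anemia 47.4% of all genes rose and 11.3% fell (0.68), and in neonates 49.6% rose and 10.3% fell (0.75).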

How the data were processed

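The values used were deposited by the authors as log2 expression values, a column per library. Per the submitters' processing notes, the alignment used Bowtie 0.12.2 and build mm8. Per the labels' protocols, total RNA went into TruSeq libraries. That protocol text speaks of retinas while every tissue label says spleen. The scale behind the log, the gene counting, its strand setting and the depth are not given in the sources used here, so the precision of single values is unknown.

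Values were taken out of the log, with the 23668 blank cells (7.90%) taken as 0, and log2(value + 1) was used. Genes with at least 1 in at least 3 libraries of a fit were tested: 11195 over the 18 libraries of Ter119+CD71+ cells and 10255 over 9 libraries of tumor-bearing mice. limma 3.58.1 (trend and robust options; R 4.3.3, statmod 1.5.0) fitted a mean for each group, two-sided, with Benjamini-Hochberg adjustment over all tested genes at 0.05, no further scaling and no replicate block. Errors of fold changes are standard errors of that fit. Deviations of same-numbered libraries in the CD45 contrasts had correlations of 0.1123 to 0.2716 in tumor-bearing mice, 0.1091 to 0.2261 in anemia and 0.2151 to 0.3623 in neonates (3 pairs each). In anemia and neonates each CD45+ library correlated most with the CD45- library of its number. In tumor-bearing mice replicate 1 of the CD45+ cells correlated more with replicate 2 of the CD45- cells (0.138) than with replicate 1 (0.1123). Replicate 2 of the CD45+ cells likewise had 0.1376 with replicate 1 and 0.1238 with replicate 2. Whether the numbers pair the libraries is thus not known, and the labels do not say. A fit with same-numbered libraries of a status as blocks was added after the data were seen. The code was tested on simulated data. Where a symbol was listed more than once (8 repeated rows), its row of highest mean kept the symbol, and the other rows stayed in the data as separate entries.

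The members, gene lists and alternatives were chosen with earlier results of these data known. Named genes were, per comparison, up to 5 members with the largest positive and 5 with the largest negative fold change that passed without overlap between groups, those at the middle of the tumor contrast, and up to 2 each way from each other mitochondrial list, with Tufm, Dap3, Lrpprc, Tfam and Polrmt always given. Genes outside this rule (Mrps36 in anemia, those called in all 3 statuses) are given because their counts are small. Mrpl57, older name Mrp63, was placed with the mitochondria-specific large subunit after the table was read. Alternatives were a pseudocount of 0.1, no filter, median-ratio scaling, quantile normalization, haemoglobin genes left out with rescaling, all 21 libraries in 1 fit, the replicate number as a block, and each library left out. Promoters and annotation are of GRCm38 and were matched by symbol, with no coordinates carried over from mm8. A pseudogene copy means at least 95% identity over at least 100 bases.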

Additional observations from a re-analysis of the deposited data

How the results depend on the processing

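Of 27 results for named members, all kept call and direction with a pseudocount of 0.1, with no filter and with the replicate block, 25 with haemoglobin genes left out, 18 after median-ratio scaling, 14 after quantile normalization and 25 with all 21 libraries in 1 fit, where Mrpl53 was lost in tumor-bearing mice and in anemia. After quantile normalization the anemia contrast of Mrps35 was -0.060 and that of Mrpl1 -0.19, the opposite sign. The counts of higher and lower members in the CD45 contrast, 26 and 1, 8 and 5, and 27 and 0 in tumor-bearing mice, anemia and neonates, were 4 and 11, 0 and 20, and 4 and 8 after median-ratio scaling, 1 and 16, 0 and 29, and 4 and 15 after quantile normalization, and 12 and 3, 7 and 7, and 19 and 1 with haemoglobin left out. For tumor CD45- cells against MDSC, 2 higher and 21 lower became 13 and 8, 15 and 3, and 9 and 8 in the same order. The shares of all genes called moved with the scalings as well and are given with these contrasts above. Quantile normalization called 2 members higher in tumor than in anemia CD45+ cells, leaving haemoglobin out called 1 higher in tumor CD45+ cells than in MDSC, and the fit of 21 libraries called 0 lower in tumor CD45+ cells. The cause was not tested.

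Leaving out 1 library at a time gave 13 to 29 higher and 0 to 1 lower in tumor-bearing mice, 2 to 29 higher and 4 to 6 lower in anemia, and 17 to 31 higher and 0 to 1 lower in neonates. The low ends came without replicate 1 of tumor CD45- cells (17 without replicate 2), without replicate 1 of anemia CD45- cells and without replicate 3 of neonatal CD45- cells. Tumor against anemia CD45+ cells had 0 to 3 higher, tumor CD45+ cells against MDSC 0 to 1 higher (1 without replicate 3 of MDSC), and tumor CD45- cells against MDSC 2 to 3 higher and 12 to 28 lower (12 without replicate 1 or 2 of MDSC, 13 without replicate 1 of tumor CD45- cells). Leaving out replicate 3 of every group, chosen after the data were seen, gave 45 higher and 1 lower in tumor-bearing mice, 37 and 4 in anemia, 30 and 0 in neonates, 7 and 1 in tumor over anemia CD45+ cells, 1 and 0 in tumor over neonatal CD45+ cells, 0 and 4 in tumor over neonatal CD45- cells, 1 and 0 in tumor CD45+ cells over MDSC, 3 and 45 in tumor CD45- cells over MDSC, and 2 and 0 for the tumor minus anemia interaction. The share of all genes called higher in the CD45 contrasts was then 58.7%, 57.6% and 54.9%. For most of the other refits the shares of all genes are not given here. The swings in those counts cannot be read as particular to the members. The members' median stayed below that of all genes in each CD45 contrast without any 1 library, except in tumor-bearing mice without replicate 3 of the CD45+ cells (0.72 against 0.69). Calls of 7 of the 27 named results were lost without some library.

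Every same-numbered pair correlated over 0.1 in the 3 CD45 contrasts, in tumor against neonatal CD45+ cells and in tumor CD45+ cells against MDSC, but not in the other 4 comparisons. Over all 63 same-numbered pairs between groups, 35 were over 0.1 (median 0.11, and 0.22 for number 3). Differing numbers had a median of -0.09, which is no independent comparison, since deviations from a mean of 3 libraries sum to 0. Some pairs of numbers 1 and 2 also correlated over 0.1, such as tumor CD45+ replicate 1 with neonatal CD45+ replicate 2 (0.2624). These values do not settle whether the numbers pair the libraries. With the replicate number as 1 block the counts were 26 and 1 in tumor-bearing mice, 8 and 6 in anemia and 29 and 0 in neonates. With a replicate block for each number within a status they were 26 and 1, 12 and 6, and 28 and 0, and Mrpl12 in neonates was the 1 named call lost (limma, adjusted p = 0.0572). Depth is not known, so which of the low values could have been told apart is not known either.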
